A study of Mus musculus with 8 samples.

Results

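Near-silent genes switched on in islets of β-tetO-NICD mice were taken as those with at most 10 sequencing counts in each of 4 control libraries and at least 40 counts in each of 4 β-tetO-NICD libraries. Of 32531 genes in the count table, 7 met this rule, namely Hes5, Tacr1, Dio2, Igfbpl1, Ceacam12, Lhfpl1 and Lmntd1. The reverse rule, with at least 40 counts in every control and at most 10 in every β-tetO-NICD library, found 1 gene, Syt10, a calcium sensor of regulated exocytosis. The members were thus chosen by the measured counts of both groups, so their levels and ratios are given as a description without a test.

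RNA was sequenced from pancreatic islets of mice on a mixed C57BL/6J, 129X1/SvJ and BALB/c background. The β-tetO-NICD mice were RIP-Cre+, Rosa26-rtTA+ and tetO_NICD+, whereas the controls were RIP-Cre+, Rosa26-rtTA+ and tetO_NICD-. Both groups therefore carried the Cre and the reverse tetracycline transactivator, and both drank doxycycline (Dox) for 8 weeks. Cre is driven by an insulin promoter, so that the transgene is directed to β cells, whereas whole islets also hold α and δ cells, vessels, leukocytes and remnants of exocrine tissue. Libraries of the β-tetO-NICD mice are called NICD libraries and keep the numbers of their columns, 1, 2, 4 and 5. The age of the sequenced mice is not stated by name in the sources used here. In such bulk RNA, more cells of a type and more RNA per cell cannot be told apart.

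Notch receptors are cleaved after they bind a ligand on a neighbouring cell, and the freed intracellular domain (NICD) enters the nucleus and joins the DNA-binding protein Rbpj to activate target genes. The best known targets encode the Hes and Hey repressors, which in the embryonic pancreas and brain hold progenitor cells back from differentiation. Mature β cells normally have little Notch activity, and the transgene supplies NICD without a ligand.

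The libraries held between 21701223 and 26413146 counts, and levels are given as CPM, the counts relative to library totals scaled by TMM. On this scale 10 counts stood for 0.332 to 0.504 CPM and 40 counts for 1.33 to 2.02 CPM. Ins1 and Ins2, the insulin genes, took 15.0% to 17.3% of the counts in controls and 6.16% to 13.9% in NICD islets. Notch1, from which NICD derives, was counted 1051 to 1562 times in controls and 11388 to 36628 times in NICD islets. The methods name male mice for gene expression, but Eif2s3y, which is Y-linked, was counted 1300 times in control 2, 1527 times in control 4, 1465 times in NICD library 5 and at most once elsewhere. Eif2s3y thus differed within both groups, and counts of calls without those 3 libraries are given with the limits.

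The Hes5 promoter is shown first because, of the 5 members with a window, it alone held in that window the core of the Rbpj binding site. RefSeq promoter windows of GRCm38.p6, from 250 bases before to 50 bases after the start, were at hand for 5 of the 7 genes (Hes5, Tacr1, Dio2, Lmntd1 and Ceacam12). The windows follow RefSeq starts, which for Hes5 and Ceacam12 are those of the GENCODE genes given below. The RefSeq start of Tacr1 lies just inside its GENCODE gene, the window of Dio2 lies wholly upstream of its GENCODE gene and that of Lmntd1 well inside its own, so other starts of these genes were not searched. The windows of Tacr1 and Dio2, the members with the most counts, are set beside it for comparison. Capitals mark GTGGGAA or its reverse complement TTCCCAC, and each window reads 5′ to 3′ on the strand of its gene (Hes5 and Tacr1 on the plus strand, Dio2 on the minus strand). They lie at chr4:154960673-154960972, chr6:82402225-82402524 and chr12:90738989-90739288.
Hes5: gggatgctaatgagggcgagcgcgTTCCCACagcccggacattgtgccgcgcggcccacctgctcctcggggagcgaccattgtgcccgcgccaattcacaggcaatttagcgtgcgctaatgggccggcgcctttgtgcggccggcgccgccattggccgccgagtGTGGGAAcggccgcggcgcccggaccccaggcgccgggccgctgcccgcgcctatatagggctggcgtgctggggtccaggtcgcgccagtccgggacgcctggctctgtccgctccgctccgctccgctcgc
Tacr1: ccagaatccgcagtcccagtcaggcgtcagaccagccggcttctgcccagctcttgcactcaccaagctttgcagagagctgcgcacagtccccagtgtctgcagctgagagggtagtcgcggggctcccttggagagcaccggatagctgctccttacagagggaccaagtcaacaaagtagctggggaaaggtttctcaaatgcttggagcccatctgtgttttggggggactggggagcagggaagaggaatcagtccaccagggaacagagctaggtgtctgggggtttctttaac
Dio2: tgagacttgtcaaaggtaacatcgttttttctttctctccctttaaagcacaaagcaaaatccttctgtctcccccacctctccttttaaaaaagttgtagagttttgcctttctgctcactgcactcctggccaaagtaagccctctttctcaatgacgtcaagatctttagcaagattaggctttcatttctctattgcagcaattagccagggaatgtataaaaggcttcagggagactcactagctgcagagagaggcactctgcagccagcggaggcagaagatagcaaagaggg
In the Hes5 window, TTCCCAC began 226 bases and GTGGGAA 83 bases before the start, on opposite strands with 136 bases between them. Searched on both strands, GTGGGAA was found in 6.38% of 32851 promoter windows, and at least 2 matches in 0.256%. The shorter TGGGAA, which is contained in GTGGGAA, was found in 25.56% of windows and among the members again only in that of Hes5, within the same 2 matches. A match describes letters in a window and is not a measured binding site. The windows differed in composition, from 72.7% G and C with 41 CpG dinucleotides in Hes5 to 39.3% with 1 CpG in Ceacam12. The median over all windows was 52.7% with 7 CpG.

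All 7 genes are protein-coding and they lie on 5 chromosomes, with Hes5 and Igfbpl1 109.1 Mb apart on chromosome 4 and Tacr1 and Lmntd1 63.01 Mb apart on chromosome 6. They cover unlike classes of protein, namely a transcription factor, a receptor, a hormone-converting enzyme, a secreted protein, a pair of membrane proteins and a protein with a lamin tail domain. Coordinates below are from GRCm38 with the GENCODE M21 annotation. Ratios are of pooled CPM between the groups, and their 95% intervals cover counting error only.

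Hes5, a basic helix-loop-helix repressor and a classic Notch target of neural progenitors (chr4:154960923-154962371, plus strand, 3 exons), was counted 1, 1, 1 and 0 times in controls 1 to 4. In NICD libraries 1, 2, 4 and 5 it was counted 71, 154, 429 and 479 times. The groups were far apart, but the NICD libraries also differed 7.15-fold among themselves on the CPM scale. The mean in NICD islets was 12.1 ± 9.21 CPM (SD, n = 4). The ratio of pooled CPM was 383, with an interval of 131 to 1861 that reflects the 3 control counts.

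Tacr1 encodes the neurokinin 1 receptor for substance P, known from neurons of the brain and gut, smooth muscle and immune cells (chr6:82402334-82560104, plus strand, 6 exons). Its counts were 1, 3, 10 and 8 in controls and 936, 1114, 1929 and 890 in NICD libraries 1, 2, 4 and 5. Control 3 sat on the limit of 10 counts, and no NICD library had fewer than 890. At 50.5 ± 9.22 CPM (SD, n = 4), Tacr1 was the most even of the 7 genes, with a coefficient of variation (CV) of 18.3% against a median of 24.3% over all tested genes. The ratio was 225 (148 to 359).

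Dio2 encodes the type 2 deiodinase, a selenoprotein that converts the prohormone T4 to active T3 in brown fat, pituitary and glial cells of the brain (chr12:90724552-90738438, minus strand, 2 exons). It was counted 0, 2, 2 and 6 times in controls and 518, 319, 622 and 388 times in NICD libraries 1, 2, 4 and 5. Dio2 was the only one of the 7 genes whose highest CPM was in library 1. The mean was 19.7 ± 4.41 CPM (SD, n = 4) and the ratio 187 (102 to 391).

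Igfbpl1, a secreted protein related to the insulin-like growth factor binding proteins and known from the developing brain (chr4:45809468-45826923, minus strand, 5 exons), had 1, 1, 8 and 5 counts in controls. In NICD libraries 1, 2, 4 and 5 it had 72, 427, 481 and 243 counts. Library 1 was well below the other 3, and the SD was accordingly wide, at 12.6 ± 6.64 CPM (n = 4). The ratio was 82.7 (49.95 to 148).

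Ceacam12 belongs to the carcinoembryonic antigen family of cell-surface proteins, whose rodent branch is known from trophoblast of the placenta (chr7:18065929-18077986, plus strand, 3 exons). Its counts were 3, 5, 3 and 5 in controls and 46, 196, 187 and 309 in NICD libraries 1, 2, 4 and 5. It was the only member counted at least 3 times in every control and had the smallest ratio, 46.8 (28.6 to 82.3). The mean was 8.13 ± 5.61 CPM (SD, n = 4), with the low value again in library 1.

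Lhfpl1, of the LHFPL family of 4-pass membrane proteins (chrX:145290359-145349089, minus strand, 4 exons), was counted once, in control 1, over all 4 controls. Its counts in NICD libraries 1, 2, 4 and 5 were 43, 45, 98 and 45. Of the 7 genes it lay closest to the limit of 40, and its mean was 2.38 ± 0.595 CPM (SD, n = 4). With a single control count, its ratio of 234 had an interval from 41.6 to 9296.

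Lmntd1, a protein with a lamin tail domain (chr6:145365134-145614319, minus strand, 11 exons), had 0, 2, 3 and 3 counts in controls. It had 232, 272, 582 and 241 counts in NICD libraries 1, 2, 4 and 5. Libraries 1, 2 and 5 lay between 11.02 and 12.1 CPM, with library 4 above them at 19.3 CPM. The mean was 13.6 ± 3.85 CPM (SD, n = 4) and the ratio 168 (85.2 to 391).

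**Figure D1:**
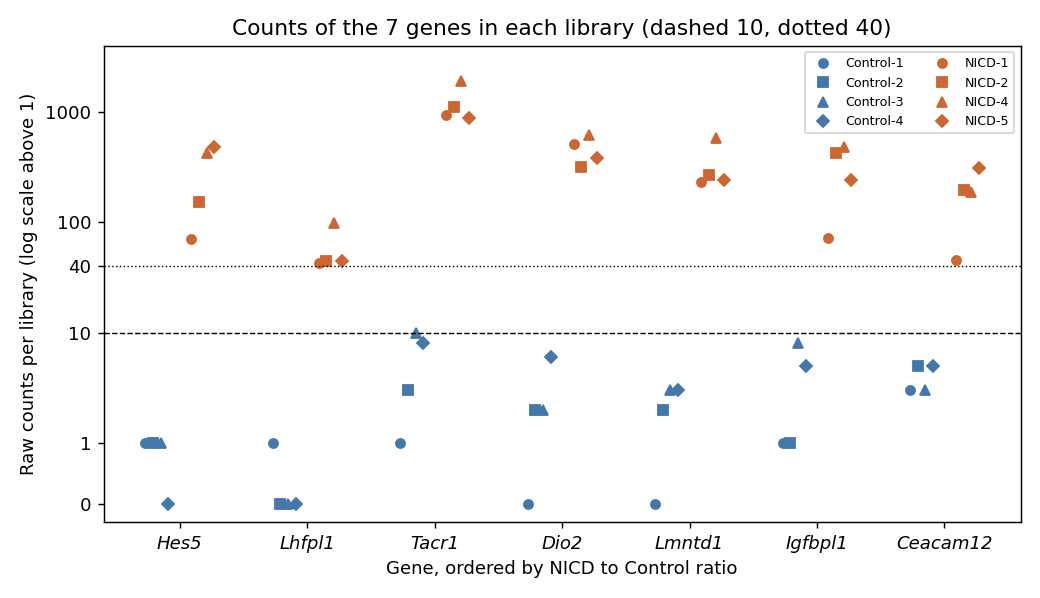
Deposited counts of the 7 genes in every library, on an axis that is linear up to 1 count and logarithmic above, with lines at the limits of 10 and 40 counts; points are single libraries. Controls had between 0 and 10 counts and NICD libraries between 43 and 1929.

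The order by ratio was Hes5, Lhfpl1, Tacr1, Dio2, Lmntd1, Igfbpl1 and Ceacam12, from 383 down to 46.8 with a median of 187. The intervals of the first 5 overlap, as does that of Igfbpl1 with each of them, so the order of these genes is not fixed by the counts. The interval of Ceacam12 overlaps those of Igfbpl1 and Lhfpl1. Measured instead as the lowest NICD CPM over the highest control CPM, the order was Tacr1 (112), Lmntd1 (90.5), Hes5 (73.2), Dio2 (57.2), Lhfpl1 (42.6), Igfbpl1 (10.8) and Ceacam12 (10.4). The largest gap between the groups thus belonged to Tacr1, whereas the highest ratio of pooled CPM belonged to Hes5.

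Levels were compared between genes per kilobase of the longest annotated transcript. Tacr1 had 10.1 ± 1.84 and Hes5 9.52 ± 7.23 CPM per kb (SD, n = 4), which overlap. Ceacam12, Igfbpl1, Lmntd1 and Dio2 followed at 4.45 ± 3.07, 4.39 ± 2.32, 4.02 ± 1.14 and 3.39 ± 0.759 CPM per kb, neighbours within their spread. Lhfpl1 was lowest at 1.30 ± 0.325 CPM per kb. With the median transcript length, an alternative chosen after seeing the data, Hes5 came first at 14.9 CPM per kb and Tacr1 second at 10.2. Lmntd1 (7.25), Igfbpl1 (6.96) and Lhfpl1 (2.14) were then also over 1.5 times higher than with the longest transcript, and the first pair stood above Ceacam12 (5.44), so the order depends on the length used.

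**Figure D2:**
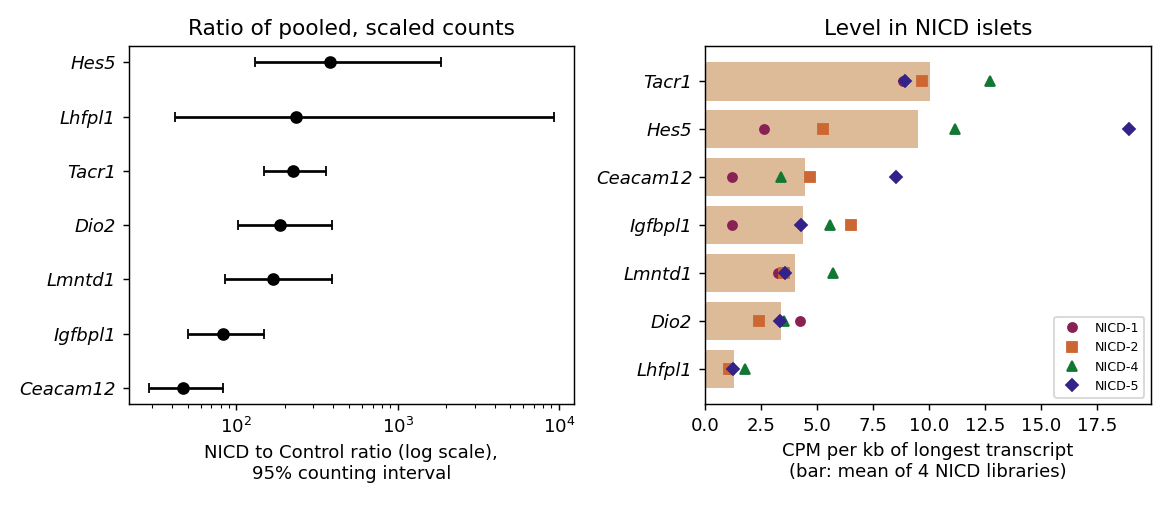
Ratio of pooled CPM between the groups with its 95% counting interval (log axis), beside the level in CPM per kb in NICD islets, with the mean of 4 libraries as a bar and each library as a point. Hes5 had the highest ratio, 383, and Tacr1 the highest level, 10.1 CPM per kb; the intervals of the first 5 ratios overlap.

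Variation among the NICD libraries divided the 7 genes. Hes5, Ceacam12 and Igfbpl1 had CVs of 76.0%, 69.0% and 52.8%, whereas Lmntd1, Lhfpl1, Dio2 and Tacr1 had CVs of 28.3%, 25.0%, 22.4% and 18.3%. In library 1, Hes5, Igfbpl1 and Ceacam12 stood at 0.224, 0.219 and 0.216 of their mean in the other 3 libraries. The remaining 4 genes stood at 0.763 (Lmntd1), 0.819 (Lhfpl1), 0.847 (Tacr1) and 1.36 (Dio2) on the same measure.

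Library 1 had the lowest CPM for 5 of the 7 genes and library 2 for the other two. Over all tested genes, library 1 was lowest of the 4 for 34.66% and highest for 38.37%. Of 4 length classes of equal size, genes in the shortest (111 to 2157 bases) had in library 1 a median of 0.672 of their mean in the other NICD libraries and those in the longest 1.49. Such a trend was not particular to library 1. Across 14644 genes, a gene's log2(CPM + 0.5) relative to its mean over all libraries followed transcript length with a Spearman rho of 0.44, 0.49, -0.17 and 0.52 in controls 1 to 4 and 0.47, -0.53, -0.37 and -0.53 in NICD libraries 1, 2, 4 and 5, where the genes share their library and are no replicates. The trend was thus positive in 3 of 4 controls and negative in 3 of 4 NICD libraries, so it ran largely with the groups, and its part in the comparison of the groups was not tested. Of the 7 genes, 6 lay below the median of their own length class. Notch1 was not lowest in library 1, with 1008, 1322, 1216 and 574 CPM in libraries 1, 2, 4 and 5, and Hes5 was highest in library 5, where Notch1 was lowest. The part of length or of Notch1 level in the spread was not tested.

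**Figure D3:**
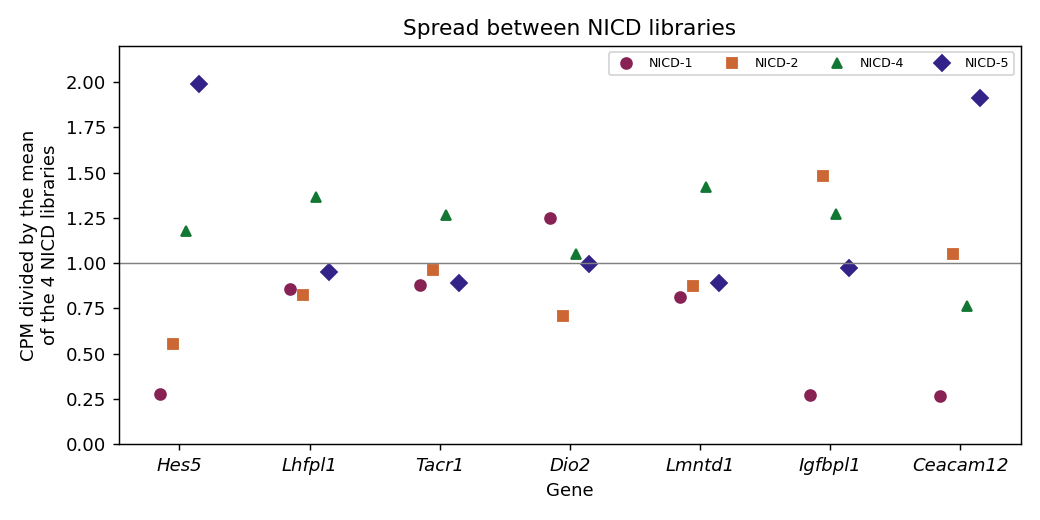
CPM of each gene in NICD libraries 1, 2, 4 and 5 relative to its mean over the 4 libraries (points), so that 1 is the mean. Hes5, Igfbpl1 and Ceacam12 spread widely, with library 1 lowest, whereas Tacr1, with a CV of 18.3%, spread least.

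Summed over the 7 genes, controls 1 to 4 held 7, 14, 27 and 27 counts and NICD libraries 1, 2, 4 and 5 held 1918, 2527, 4328 and 2595. As CPM on raw library totals, without the TMM scaling used elsewhere, this was 0.312 to 1.15 in controls against 88.4 to 164 in NICD libraries. By the rule, every NICD library was above every control for all 7 genes, which also held for 8.22% of the 15082 genes tested.

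Very few silent genes were switched on in this way. In all, 16996 genes had at most 10 counts in each control, and 16351 of these also had at most 10 in each NICD library. At least 40 counts in some NICD library were reached by 77 of them, in exactly 1 library for 50 genes, in 2 for 12, in 3 for 8 and in all 4 for the 7 members. In the reverse direction, 16719 genes had at most 10 counts in every NICD library, and 16 of these reached 40 in some control. Syt10 alone did so in every control, with 102, 81, 81 and 296 counts, against 0, 0, 2 and 3 in NICD libraries 1, 2, 4 and 5, a ratio of 110 (47.0 to 341) in favour of controls. Every NICD library was below every control for Syt10, as for 7.92% of the genes tested.

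Just inside the limits lay Tacr1, with 10 counts in control 3, and Lhfpl1 and Ceacam12, with 43 and 46 counts in NICD library 1. Just outside, 11 genes missed in a single library, 6 of them in library 1 (Ccdc33, Cyb5r2, Dppa1, Fam83e, Gm266 and Lama1). The 11 include Gm10240 and Gm13370, which had identical counts in every library and so are not separate observations. Lama1, a laminin chain of basement membranes, had at most 5 counts in controls and 37, 43, 56 and 52 in NICD libraries 1, 2, 4 and 5. Mlc1, a membrane protein known from astrocytes, had 2, 0, 0 and 0 counts in controls and 53, 31, 189 and 113 in these libraries. Hp, the haemoglobin scavenger haptoglobin, missed only through 26 counts in control 3. Iyd, the iodotyrosine deiodinase of the thyroid, missed through 13 counts in 2 controls (6, 13, 8 and 13) and had 437, 854, 1086 and 609 counts in NICD libraries, a ratio of 75.7 (55.5 to 106).

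The limits on raw counts thus decide which genes are listed. With counts scaled by TMM before the rule, Lama1 joined the 7. With at most 5 and at least 80 counts Lmntd1 alone was left, and with limits of 20 and 20 there were 61 genes. Leaving out a library can only relax the rule, and without library 1 there were 13 genes.

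**Figure D4:**
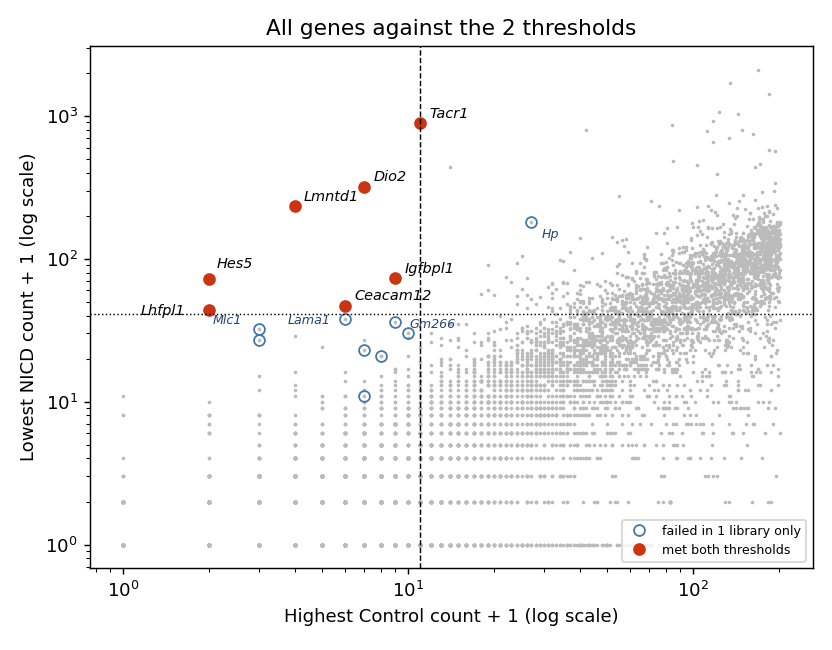
Highest control count against lowest NICD count for every gene with at most 200 counts in each control, both as count + 1 on log axes; dashed and dotted lines mark 10 and 40 counts, filled points are the 7 members and open points genes that missed in 1 library. Tacr1 sits on the control limit, and Lhfpl1 and Ceacam12 sit just above the NICD limit.

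The 7 genes were set beside genes of the Notch pathway, which the rule did not use. The test was the quasi-likelihood test of edgeR over all 15082 genes tested, at an adjusted p of 0.05 after Benjamini-Hochberg adjustment. It called 6.76% of all genes, 4.19% as higher and 2.57% as lower under NICD. Of 42 tested pathway genes that are not members, 5 were higher (11.9%), namely the receptor Notch1, the repressors Hes1, Hey1 and Heyl, and Nrarp, a feedback inhibitor of Notch signalling. Notch1 is the gene of which the transgene supplies a part, so its call was fixed by the design, and 4 further genes were higher. None was lower by this test, where 4 had a lower value at an unadjusted p under 0.05, DESeq2 called 2 lower and limma-voom 0.

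These targets differed from Hes5 in where they started. Hes1 was counted 154, 174, 215 and 148 times in controls, and rose from 7.24 ± 1.03 to 44.3 ± 10.6 CPM (SD, n = 4 each). Its log2 fold change was 2.61 ± 0.21 (SE), with an adjusted p of 0.000140 by the quasi-likelihood test of edgeR after Benjamini-Hochberg adjustment. Nrarp rose from 3.23 ± 0.543 to 33.2 ± 8.37 CPM (log2 fold change 3.36 ± 0.24, adjusted p = 8.52e-05, same test). Hey1 and Heyl had at least 41 and 144 counts in every control and rose by 4.04 and 3.56 on the log2 scale. Of these repressors, Hes5 alone started near silence, and its fitted log2 fold change, given as a description, was 8.36 ± 0.86 (SE). Hey2 (0.14) and Rbpj (-0.23), by contrast, did not pass the test (adjusted p = 0.645 and 0.240, the quasi-likelihood test of edgeR after Benjamini-Hochberg adjustment).

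Large fold changes were not limited to genes that started silent. Against a median log2 fold change of 0.000714 over all tested genes, the members had a median of 7.26 and a lowest value of 5.55 in Ceacam12. Another 9 tested genes had a log2 fold change at least as high without meeting the rule. Among them Upk3a, a uroplakin of the bladder lining, had 25, 26, 86 and 27 counts in controls and 7515, 19867, 22506 and 18975 in NICD libraries 1, 2, 4 and 5.

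The genes next to the members were examined in the same fit. Of the 14 nearest tested genes, 1 on each side of each member, 1 was called higher and 1 lower (7.14% each, against 4.19% and 2.57% of all genes tested), with a median log2 fold change of -0.0159. Aldh1b1, a mitochondrial aldehyde dehydrogenase known from pancreatic progenitors, lies 4.86 kb from Igfbpl1 and had 126, 122, 144 and 135 counts in controls and 278, 384, 423 and 251 in NICD libraries. Every NICD library was above every control, and Aldh1b1 rose from 5.53 ± 0.290 to 14.2 ± 1.83 CPM (SD, n = 4 each). The log2 fold change was 1.36 ± 0.16 (SE), with an adjusted p of 0.00148 by the quasi-likelihood test of edgeR after Benjamini-Hochberg adjustment. The call was lost in 1 of 16 alternatives, the libraries without Eif2s3y counts (adjusted p = 0.0572, same test).

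Cep128, a centriole protein gene 260 kb from Dio2, fell from 4.20 ± 0.563 to 2.10 ± 0.477 CPM (SD, n = 4 each; log2 fold change -0.996 ± 0.24, adjusted p = 0.0403, the quasi-likelihood test of edgeR). This call was lost in 9 of 16 alternatives, where the adjusted p reached 0.354. Pank4, a pantothenate kinase family gene 1.75 kb from Hes5, was at 17.7 CPM in controls and 19.2 CPM in NICD islets (adjusted p = 0.577, same test). Psg16, of the pregnancy-specific glycoproteins that are kin to Ceacam12, lies 932 kb from it and had a log2 fold change of -0.22, and Psg23, 528 kb away on the other side, had 0.92, neither of which passed. Eva1a, 309 kb from Tacr1, had 1, 9, 10 and 4 counts in controls and 13, 25, 22 and 20 in NICD libraries 1, 2, 4 and 5. These did not overlap, but its log2 fold change of 1.77 ± 0.52 (SE) missed the threshold (adjusted p = 0.0672, the quasi-likelihood test of edgeR) and passed by DESeq2 (adjusted p = 0.0265).

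The closest relative of each member by protein sequence was also examined. Of 6 tested relatives 2 were higher, against 4.19% of all genes tested. They were Hes1 (39.5% identical to Hes5 over 114 aligned residues) and Dio3 (36.8% identical to Dio2 over 269). Dio3, the type 3 deiodinase, which inactivates T4 and T3, had 0, 3, 0 and 0 counts in controls and 11, 29, 46 and 15 in NICD libraries 1, 2, 4 and 5. All NICD libraries lay above all controls, at 1.02 ± 0.460 CPM (SD, n = 4), a ratio of 34.2 (11.4 to 168). Its log2 fold change was 4.81 ± 0.83 (SE), with an adjusted p of 0.0103 by the quasi-likelihood test of edgeR after Benjamini-Hochberg adjustment. Dio3 passed the filter on low counts through its NICD libraries alone, and without any filter its adjusted p was 0.00927 (same test). The size of the change rests on the 3 counts of control 2, without which the fitted log2 fold change was 7.62. Without the Eif2s3y libraries, control 2 among them, it was 7.76 with an adjusted p of 0.0697 (same test). Dio1, the type 1 deiodinase of liver and kidney, was at 69.7 ± 29.0 CPM in controls and 29.3 ± 10.5 CPM in NICD islets (SD, n = 4 each), which missed the threshold (adjusted p = 0.0603, same test).

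The relatives of the other members did not pass the test. Tacr3, the neurokinin B receptor (59.4% identical to Tacr1), had 23, 17, 49 and 188 counts in controls and 24, 49, 58 and 44 in NICD libraries, which overlap (adjusted p = 0.529, the quasi-likelihood test of edgeR). Its direction turned when control 4, the highest library, was left out. Lhfp (64.3% identical to Lhfpl1) was at 7.06 and 11.8 CPM, Igfbp7 (37.8% identical to Igfbpl1) at 176 and 238 CPM, and the nuclear lamin gene Lmna (36.4% identical to Lmntd1 over 110 residues) at 54.8 and 58.0 CPM in controls and NICD islets. Their adjusted p values were 0.0937, 0.156 and 0.706 (the quasi-likelihood test of edgeR after Benjamini-Hochberg adjustment). Ceacam11, the closest relative of Ceacam12 at 68.7% identity, had 0 counts in every library, as had Ceacam13 and Ceacam14.

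**Figure D5:**
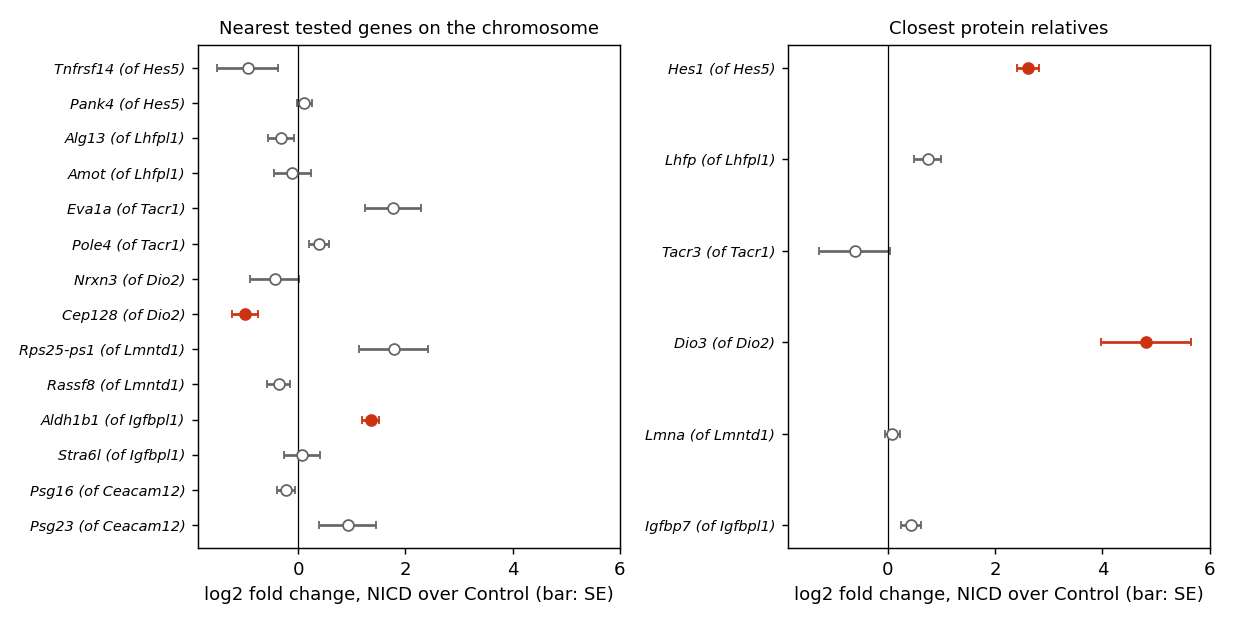
Log2 fold change with its SE of the nearest tested genes on either side of each member and of the closest protein relatives, as fitted by edgeR; filled points passed an adjusted p of 0.05. Aldh1b1 (1.36), Hes1 (2.61) and Dio3 (4.81) were higher and Cep128 (-0.996) was lower, and the others did not pass the test.

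Tissues in which members are normally expressed were set beside markers of 16 cell types. Of these markers 121 genes were tested, 10 higher (8.26%) and 3 lower (2.48%), against 4.19% and 2.57% of all genes tested. No list covered trophoblast, brown fat or pituitary, which are named above for Ceacam12 and Dio2. For Lhfpl1 and Lmntd1 no normal tissue is named above. For the neural members Hes5, Tacr1 and Igfbpl1, the neural progenitor list had 2 of 5 tested genes higher, Nes, the intermediate filament nestin, and Slc1a3, a glial glutamate transporter. Nes rose from 11.6 ± 3.78 to 107 ± 26.4 CPM (SD, n = 4 each; adjusted p = 0.000157, the quasi-likelihood test of edgeR after Benjamini-Hochberg adjustment). Slc1a3 passed at an adjusted p of 0.0409 (same test) and was lost in 9 of 16 alternatives. Of the genes of this list that were too low to test, Sox1 and Olig2 had at most 3 counts in every NICD library, and Sox2 had 3, 1, 6 and 4 counts in controls and 4, 3, 24 and 15 in NICD libraries 1, 2, 4 and 5. The summed level of the list was 225 to 279 CPM in controls and 237 to 305 CPM in NICD islets. Most of that sum was Pax6, which islet endocrine cells also express, at 242 ± 23.0 CPM in controls and 159 ± 31.9 CPM in NICD islets (SD, n = 4 each), so the sum does not describe the other genes of the list.

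Of 9 tested neuron genes, 1 was lower, Th, the tyrosine hydroxylase of catecholamine synthesis, which fell from 41.9 ± 1.01 to 15.0 ± 2.74 CPM (SD, n = 4 each; adjusted p = 0.000681, the quasi-likelihood test of edgeR after Benjamini-Hochberg adjustment). The summed neuron list lay at 153 to 206 CPM in controls and at 112 to 132 CPM in NICD islets. The sum of 9 glial and Schwann cell genes, of which no gene passed, was 129 to 181 CPM in controls and 109 to 146 CPM in NICD islets.

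Among lists for other cells that could hold members, Ambp and Clu were higher in the pancreatic duct list, whose sum was 476 to 673 CPM in controls and 837 to 1385 CPM in NICD islets. C1qa, a complement gene of macrophages, was the 1 gene of 11 tested that was higher in the leukocyte list (summed level 180 to 227 and 258 to 356 CPM). C1qa itself went from 77.6 ± 15.7 to 150.4 ± 34.3 CPM (SD, n = 4 each), whereas the macrophage genes C1qb, C1qc, Adgre1, Csf1r, Cd68 and Lyz2 had log2 fold changes of 0.75, 0.41, -0.38, 0.09, 0.00086 and 0.07 and did not pass. Hp was higher in the hepatocyte list (summed level 10.1 to 19.7 and 28.3 to 44.1 CPM). It passed the filter on low counts through its NICD libraries and made up most of the rise, at 0.311 ± 0.479 CPM in controls and 17.9 ± 6.80 CPM in NICD islets (SD, n = 4 each), and without any filter its adjusted p was 0.000891 (edgeR). Krt10 was higher in the stratified epithelium list (6.25 to 10.8 and 11.02 to 18.1 CPM), of which 3 genes were tested. In that list 9 of 15 genes, Krt5, Krt14 and Trp63 among them, had at most 3 counts in every NICD library. In the urothelium list, Upk3a was higher and the sum went from 1.689 to 3.996 CPM up to 360 to 957 CPM, while 7 of 13 genes, Upk1b, Upk2 and Krt20 among them, had at most 3 counts in every NICD library.

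Among genes of the islet endocrine list, Hhex, a regulator of δ cells, was higher, and Ucn3 and Slc2a2, genes of mature β cells, were lower. The list summed to 189473 to 258669 CPM in controls and 148163 to 263157 CPM in NICD islets. The glial, acinar, gastrointestinal, fibroblast, endothelial, ciliated cell and muscle lists, with 60 tested genes, had none past the threshold by edgeR, where 13 had an unadjusted p under 0.05, DESeq2 called 4 and limma-voom 0. No gene of the germ cell list had enough counts to be tested. Acinar genes summed to 34644 to 69937 CPM in controls and 28921 to 105651 CPM in NICD islets, gastrointestinal genes to 1897 to 2685 and 2115 to 4703 CPM, and fibroblast genes to 248 to 839 and 444 to 540 CPM. Most of the gastrointestinal sum was Pyy, at 2334 ± 365 CPM in controls and 3285 ± 1193 CPM in NICD islets (SD, n = 4 each). Of the 15 genes of that list, 6 had at most 3 counts in every NICD library, so its sum does not describe the other genes. Endothelial genes summed to 537 to 852 and 722 to 852 CPM, ciliated cell genes to 60.4 to 77.4 and 65.8 to 89.6 CPM, muscle genes to 13.5 to 32.6 and 21.05 to 27.7 CPM, and germ cell genes to 0.876 to 2.92 and 0.996 to 1.52 CPM. The part of these cell types in the levels of the members was not tested.

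Sequence shared with other annotated genes bears on how far the counts belong to each member. Of the 31-base words in Hes5 transcripts, 25.7% also occur in another gene, all in Gm20421, which overlaps it on the opposite strand and is not in the count table. The shares were 11.4% for Lhfpl1 (with Gm42816), 8.18% for Ceacam12 (mostly with Gm44613), 1.21% for Dio2 (with Gm26512), 1.03% for Tacr1, and 0 for Igfbpl1 and Lmntd1. The library kit keeps the strand, but the strand setting of the counting is not given, so reads of such overlapping pairs may not be separable. Inside Lmntd1, the opposite-strand gene 1700073E17Rik had 26 counts over the controls and 32 over the NICD libraries.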

How the data were processed

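Islet RNA of both groups (4 mice each) was sequenced from stranded poly(A) libraries. The deposited values are whole-number counts per gene symbol, which the authors made with Kallisto on GRCm38 and did not normalize. Its version, the annotation release and the strand setting are not given in the sources used here. The authors' own limma comparison, a table of fold changes, mean expression and test statistics, was not used. Columns NICD-4 and NICD-5 match the NICD group but no single labelled mouse and entered as unnumbered replicates, and no other column of sample values was present. No libraries of 1 group were alike within counting noise (at least 31.5 chi-square per gene between any pair within a group).

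The members were chosen, and the lists written, with earlier results of these data known. Counts were compared in R 4.3.3 with edgeR 4.0.16, after a filter that asked for 10 counts or more in 4 or more of the 8 libraries and TMM normalization, by the quasi-likelihood test with Benjamini-Hochberg adjustment at 0.05. CPM use TMM-scaled library sizes. Ratio intervals are exact conditional intervals of 95% on counts, which cover counting error only. At these totals, 3 counts stand for 0.0996 to 0.151 CPM. Nothing in the labels says more than that each sample is a mouse of its group, so p-values measure the spread between these libraries.

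Named were all members and, among other genes, those of the fixed Notch and marker lists, the nearest tested gene on each side, the closest protein relatives and genes just outside the limits. Relatives were found with blastp 2.17.0 (e-value 1e-5) on translated GENCODE M21 coding sequences instead of the planned RefSeq proteins. Promoter windows came from RefSeq (GRCm38.p6), and words of 31 bases were compared between GENCODE transcripts. The alternatives were DESeq2 1.42.0, limma-voom (limma 3.58.1), other normalizations and filters, other limits of the rule, a replicate block and leaving out each library. Not every gene of the marker lists that passed the test is reported here by name.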

Additional observations from a re-analysis of the deposited data

Results flagged for a closer look

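Among 88 groups of 4 libraries, 12 had 1 library far from the other 3 by Dixon's ratio (the gap to the nearest library over the whole range, above its critical value at 95%). Chance flags about 1 in 20 groups, a rate that does not hold for groups with almost no counts. The ratios of Hes5, Lhfpl1 and Dio3 in controls are set largely by those few counts. No explanation was tested.

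Of the members, Hes5 in controls had a ratio of 0.858, with 0 counts in control 4 against 1 in each of the others. Lhfpl1 in controls had a ratio of 1, which follows of necessity where only 1 library, here control 1, has any counts. Lmntd1 in NICD islets had a ratio of 0.865, with library 4 at 19.3 CPM.

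Of relatives and neighbours, Dio3 in controls had a ratio of 1, with its 3 counts in control 2. Lhfp in controls had 0.864, with control 2 highest at 10.2 CPM. Pank4 in NICD islets had 0.833, with library 5 lowest at 16.6 CPM.

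Of Notch pathway and marker genes, Nrarp in controls had 0.863 (control 3 highest, 4.04 CPM), Upk3a in controls 0.975 (control 3 highest, 3.40 CPM) and Nes in NICD islets 0.91 (library 4 highest, 146.7 CPM). Of summed marker lists in controls, stratified epithelium had 0.833 (control 3 highest, 10.8 CPM), acinar 0.945 (control 1 highest, 6.994e+04 CPM) and neuron 0.862 (control 4 highest, 206.4 CPM).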

How the results depend on the processing

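Genes called between the groups numbered 1020 (632 higher, 388 lower), with 2739 under DESeq2 and 319 to 4954 when 1 library was left out, lowest without NICD library 2 and highest without library 1. In the 5 libraries without Eif2s3y counts, an alternative chosen after seeing the data with fewer samples, 116 genes were called. Of neighbours, 2 were called, with 4 under DESeq2, 1 without a filter on low counts, 1 to 5 with a library left out and 0 in the Eif2s3y-free libraries (2 at an unadjusted p under 0.05). Of closest relatives, 2 were called, with 1 where all 8 libraries needed 10 counts (Dio3 was then not tested), 1 in the Eif2s3y-free libraries and 1 to 3 with a library left out (Dio3 was not tested where an NICD library was). Of Notch pathway genes, 5 were called, with 8 under DESeq2 and 5 to 13 with a library left out, highest without library 1. Of marker genes, 13 were called, with 26 under DESeq2, 5 in the Eif2s3y-free libraries and 6 to 30 with a library left out. The rule itself gave 7 genes, 1 with limits of 5 and 80 counts, 61 with 20 and 20, and 7 to 13 with a library left out. Among named genes, Tacr3 turned to a log2 fold change of 0.20 in the Eif2s3y-free libraries and ranged from -0.92 to 0.58 (without control 4) with a library left out, and Lmna turned to -0.071 and ranged from -0.0051 (without control 4) to 0.15. Apart from fewer samples or genes tested, the cause was not tested.

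With the replicate number as a block, 970 genes and 1 neighbour were called. The number is settled for only 2 pairs, with the other 4 libraries as 1 block, and deviations within these pairs correlated at 0.276 and -0.0901, so the libraries share a number and no known pairing. Depth limits Lhfpl1 and Hes5 most, whose controls held 1 and 3 counts in all.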
